A study of Homo sapiens with 6 samples.

Results

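Thioredoxin-interacting protein (TXNIP), 4 genes of its arrestin-domain family (ARRDC1, ARRDC2, ARRDC3 and ARRDC4) and thioredoxin (TXN) were followed in MDA-MB-231 cells treated with the histone deacetylase (HDAC) inhibitor PCI-24781. These 6 genes were chosen by name, matched through their NCBI Gene IDs, and all 6 were present among the 16623 genes of the processed files. The MDA-MB-231 line was derived from a human triple-negative breast cancer and was grown adherently here, in medium with serum. The 6 conditions were DMSO, 100 nM PCI-24781 and 200 nM PCI-24781, each for 24 h or 48 h, and DMSO is the solvent of the drug. Each condition had 1 RNA-seq library, so the differences below could not be set against the spread of replicates, and no significance test was made.

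TXNIP binds the reduced form of thioredoxin and holds back its activity, and it also promotes the internalisation of glucose transporters. Its transcription responds strongly to glucose through MondoA (MLXIP) and its partner MLX, and it is a well-known gene induced by HDAC inhibitors. TXNIP belongs to the alpha-arrestins, together with the ARRDC proteins, which carry an arrestin fold and recruit NEDD4-family ubiquitin ligases to membrane cargo. TXN, the cytosolic thioredoxin, reduces protein disulfides and is itself recycled by thioredoxin reductase.

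The promoter windows of TXNIP, ARRDC2 and ARRDC4 are shown because TXNIP varied most of the 6 genes, ARRDC2 had the pattern across libraries nearest to that of TXNIP, and ARRDC4 the least similar pattern among the ARRDC genes. Each runs from 250 bases before to 50 bases after an annotated transcription start in RefSeq (GRCh38.p14) and is written 5′ to 3′ on the strand of the gene. Capitals mark matches, on either strand, to the E-box CACGTG, its variant CACGAG, the NF-Y box CCAAT, the forkhead motif GTAAACA, the Sp1 box GGGCGG and the TATA box TATAAA. ARRDC2 has 2 annotated starts.
TXNIP, chr1:145996530-145996829, minus strand: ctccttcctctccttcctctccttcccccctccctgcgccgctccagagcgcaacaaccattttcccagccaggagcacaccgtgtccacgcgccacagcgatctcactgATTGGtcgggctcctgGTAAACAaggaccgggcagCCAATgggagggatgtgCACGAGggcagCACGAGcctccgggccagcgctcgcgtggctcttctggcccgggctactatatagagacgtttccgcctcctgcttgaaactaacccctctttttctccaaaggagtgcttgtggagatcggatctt
ARRDC4, chr15:97960453-97960752, plus strand: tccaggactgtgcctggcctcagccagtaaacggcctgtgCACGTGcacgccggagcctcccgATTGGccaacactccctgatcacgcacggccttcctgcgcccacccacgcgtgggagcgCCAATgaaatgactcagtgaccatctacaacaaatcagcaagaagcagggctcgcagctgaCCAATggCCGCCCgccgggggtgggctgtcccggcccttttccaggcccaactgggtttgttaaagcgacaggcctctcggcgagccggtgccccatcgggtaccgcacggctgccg
ARRDC2, the upstream start, chr19:18000874-18001173, plus strand: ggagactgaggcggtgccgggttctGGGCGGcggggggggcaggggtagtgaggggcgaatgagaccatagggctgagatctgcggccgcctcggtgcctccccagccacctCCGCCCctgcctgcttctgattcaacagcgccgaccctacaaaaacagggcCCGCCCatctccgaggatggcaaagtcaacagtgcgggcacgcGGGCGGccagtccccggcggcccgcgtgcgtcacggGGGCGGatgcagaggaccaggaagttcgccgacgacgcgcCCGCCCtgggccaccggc
ARRDC2, the downstream start, chr19:18007920-18008219, plus strand: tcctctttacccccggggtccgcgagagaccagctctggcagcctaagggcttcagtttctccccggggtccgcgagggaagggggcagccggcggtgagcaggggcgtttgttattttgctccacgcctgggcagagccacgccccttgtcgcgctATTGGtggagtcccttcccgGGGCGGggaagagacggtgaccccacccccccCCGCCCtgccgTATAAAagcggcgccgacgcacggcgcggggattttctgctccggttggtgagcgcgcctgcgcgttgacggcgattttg

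The TXNIP window held 2 copies of the E-box variant in the same orientation, at positions -88 and -77 from the start and separated by 5 bases. This arrangement is known as the carbohydrate response element of TXNIP, to which MondoA and MLX bind. Such a pair was found in 2 of the 35116 promoter windows of the table (0.0057%), and at least 1 CACGAG in 6.78%. The same TXNIP window held 2 NF-Y boxes, where 34.6% of all windows held at least 1 and 10.8% held 2 or more. That TXNIP window also held 1 forkhead motif, present in 3.42%. The other annotated TXNIP start, further downstream, had none of the motifs. ARRDC4 had 1 E-box CACGTG, which 7.26% of windows hold, and 3 NF-Y boxes. Neither ARRDC2 window had an E-box or the variant. Between them they held 1 NF-Y box, 1 TATA box and 8 Sp1 boxes. At least 1 TATA box was present in 11.5% of all windows and at least 1 Sp1 box in 45%, with 2 or more Sp1 boxes in 26.7%. ARRDC1 had 10 Sp1 boxes and 1 NF-Y box. Of the ARRDC3 starts, the downstream one had the forkhead motif, and the TXN window had 3 Sp1 boxes and a TATA box whose letters overlap their own reverse match. These are letter matches only, and binding was not measured.

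**Figure D1:**
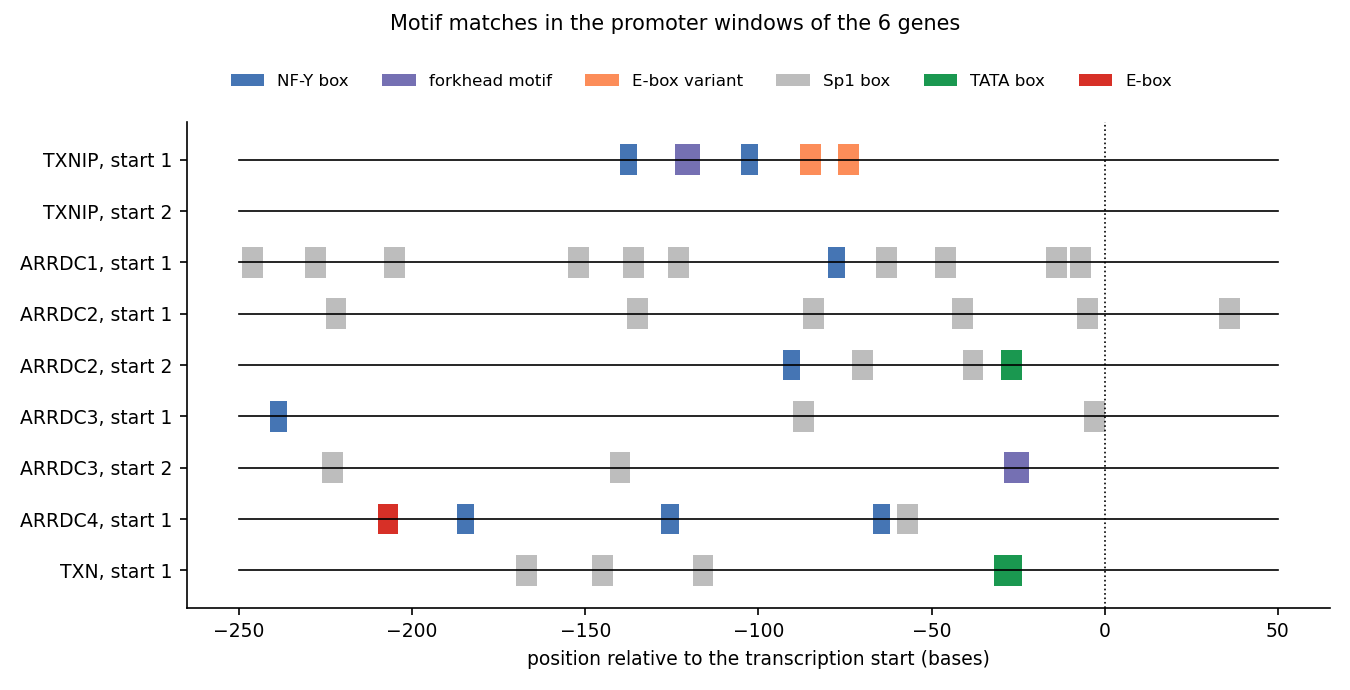
Motif matches in the promoter windows of the 6 genes. The x axis gives the position in bases relative to the transcription start (dotted line), each row is 1 annotated start, and coloured blocks mark matches on either strand. The pair of E-box variants lies in the upstream TXNIP start only.

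Expression was given by the authors as FPKM (fragments per kilobase of transcript, scaled to the library total), so levels can be compared between genes. From the steps between low values, an FPKM of 1 stood for about 16.3 to 19.1 fragments per kilobase of transcript, depending on the library. A change is a difference of log2(FPKM + 1) values, and a gene was called where this reached 2-fold and the higher of the compared libraries had an FPKM of 1 or more. The cells had the markers of the line, with VIM between 1629.38 and 2053.39 and ESR1, PGR and CDH1 at or below 0.39 in all libraries, although ERBB2 was between 13.16 and 21.36. Of the markers of other cell types, CD3E, CDH5, DCN, COL1A2 and PTPRC were at or below 1.01 and PECAM1 at or below 2.33, COL1A1 lay between 1.65 and 6.68 and CD68 between 69.59 and 126.2, and their part in the results was not tested. The 48 h libraries did not all follow their labels in the way of the 24 h libraries. Of 523 genes called higher at 200 nM 24 h, 498 lay above DMSO 48 h in the 200 nM 48 h library, but 441 lay below it in the 100 nM 48 h library. The HDAC inhibitor response gene CDKN1A had 13.18 (DMSO), 30.61 (100 nM) and 48.84 (200 nM) after 24 h, then 44.25, 25.81 and 52.88 after 48 h. Whether time in culture, exchanged labels or a single library set this pattern cannot be told apart from these values. The 48 h results of the 6 genes are therefore also given without DMSO 48 h and 100 nM 48 h, or with these labels exchanged, an alternative added after the data were seen.

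TXNIP (NCBI Gene ID 10628) occupies chromosome 1 from 145438438 to 145442644 (hg19, as the files give it), on the plus strand there and on the minus strand in GRCh38.p14. The 24 h libraries had an FPKM of 68.16 (DMSO), 67.18 (100 nM) and 131.67 (200 nM). The 48 h libraries had 160.62 (DMSO), 216.60 (100 nM) and 234.04 (200 nM). All 48 h libraries were above all 24 h libraries, and within 24 h the 200 nM library stood apart from the other 2, which were nearly equal. The highest value was 3.48 times the lowest.

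**Figure D2:**
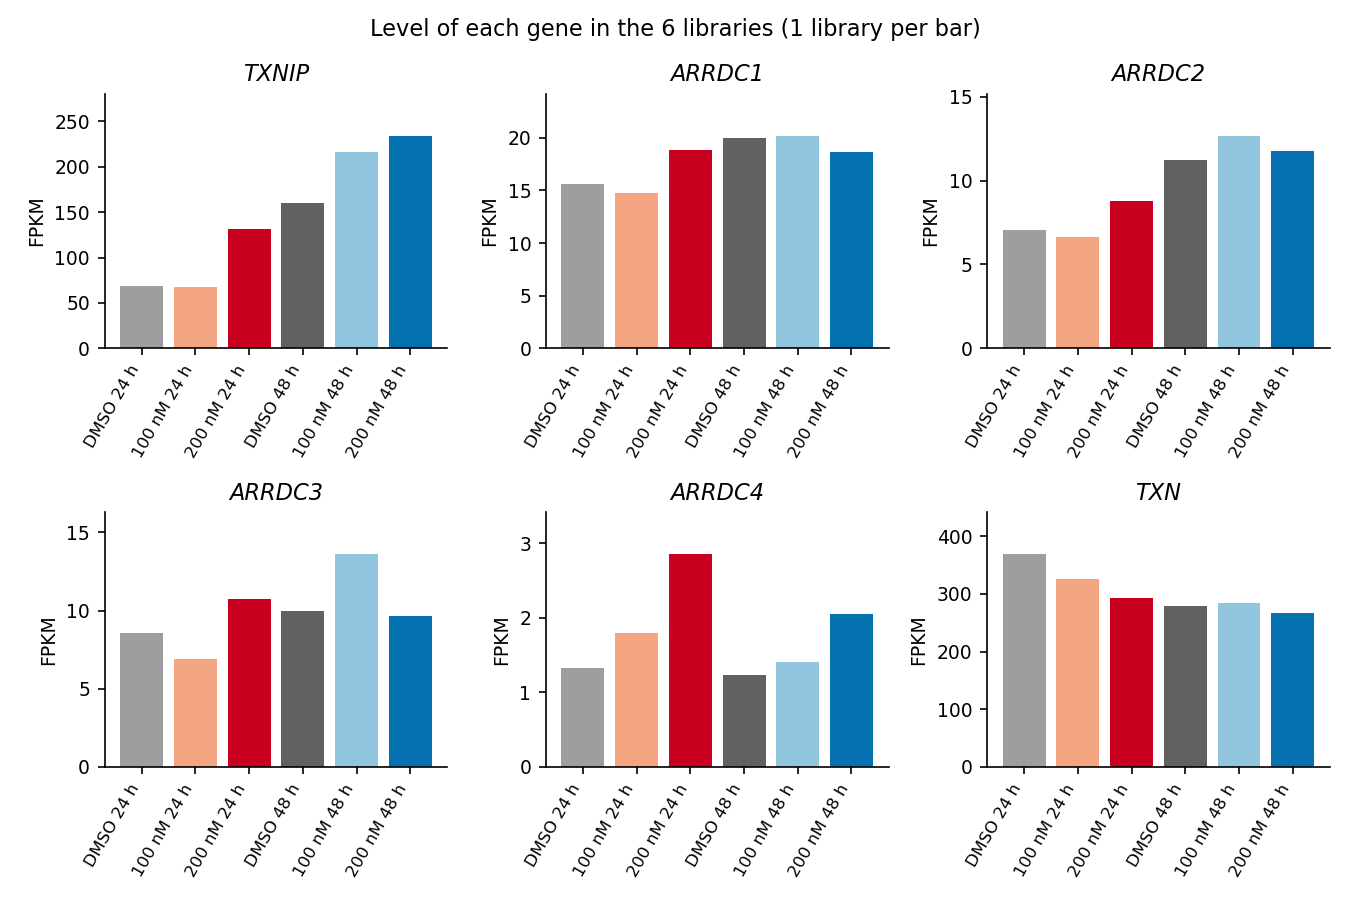
Level of each gene in the 6 libraries. The y axis of each panel is FPKM and starts at 0, and each bar is 1 library. TXNIP and ARRDC2 are higher and TXN is lower in all 48 h bars than in all 24 h bars, whereas ARRDC4 is highest at 200 nM at each time.

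Against DMSO of the same time, TXNIP was higher by 0.94 on the log2 scale in the 200 nM 24 h library (1.92-fold). The 48 h libraries were higher by 0.54 (200 nM, 1.45-fold) and 0.43 (100 nM, 1.35-fold), and the 100 nM 24 h library had a change of -0.02. None of these reached the 2-fold threshold. At 200 nM 24 h, 5.2% of the tested genes had a larger positive change than TXNIP, and at 48 h 1.9% did at 200 nM and 1.7% at 100 nM. The step from 100 nM to 200 nM at 24 h, which does not use a DMSO library, was 0.96, and 0.5% of tested genes had a larger one. At 48 h that step was 0.11. With the DMSO 48 h and 100 nM 48 h labels exchanged, the 48 h changes were -0.43 (100 nM) and 0.11 (200 nM), so the direction at 100 nM rested on these labels. With the mean of both DMSO libraries as the reference, the 48 h changes passed the threshold, at 1.04 (100 nM) and 1.15 (200 nM), and those of the 24 h libraries were -0.63 (100 nM) and 0.33 (200 nM). That reference mixes the times. By construction it adds part of the rise between the DMSO libraries to each 48 h change and takes the same part from each 24 h change. It is therefore no separate check of the change with the drug.

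In DMSO the difference between the times was larger than each of the changes against DMSO of the same time. There, TXNIP rose by 1.22 from 24 h to 48 h (2.34-fold), a change exceeded by 1.3% of tested genes. It rose by 1.67 at 100 nM (3.19-fold), exceeded by 0.1%, and was higher by 0.83 at 200 nM (1.77-fold). Without the DMSO 48 h and 100 nM 48 h libraries, the remaining 48 h library, at 234.04, was still above every 24 h library. The intervals of NBPF10 and NBPF20 in the files span the TXNIP gene on the same strand, and their FPKM was between 2.57 and 7.21 in all libraries.

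TXN (NCBI Gene ID 7295, chromosome 9 from 113006092 to 113018920) had the opposite order of times. Its 24 h libraries had an FPKM of 368.67 (DMSO), 326.79 (100 nM) and 293.40 (200 nM), and its 48 h libraries had 279.03, 283.61 and 267.20. The highest level was in DMSO 24 h, and the 48 h libraries were all below the 24 h libraries. The log2 changes at 24 h were -0.17 and -0.33 at 100 nM and 200 nM, and those at 48 h were 0.02 and -0.06. In DMSO it was lower by 0.40 at 48 h than at 24 h. With the mean of the DMSO libraries as reference, the change at 100 nM was 0.03 at 24 h and -0.18 at 48 h, so its sign at that dose depended on the reference. The ratio of TXNIP to TXN in FPKM was 0.185 (DMSO), 0.206 (100 nM) and 0.449 (200 nM) after 24 h, then 0.576, 0.764 and 0.876 after 48 h. The ratio stood in the order of dose after 24 h, and after 48 h only with the labels as given, since an exchange of DMSO 48 h and 100 nM 48 h ends that order. Without these libraries, the 48 h library left, with 267.20 for TXN and a ratio of 0.876, lay outside the range of the 24 h libraries in both.

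ARRDC2 (NCBI Gene ID 27106, chromosome 19 from 18111941 to 18124911), another alpha-arrestin, had an FPKM of 7.06 (DMSO), 6.61 (100 nM) and 8.76 (200 nM) after 24 h. Its 48 h libraries had 11.21, 12.66 and 11.76. Like TXNIP, it had no overlap between the times and its highest 24 h value at 200 nM. Against DMSO, the change was -0.08 (100 nM) and 0.28 (200 nM) after 24 h, then 0.16 and 0.06 after 48 h. In DMSO it was higher by 0.60 at 48 h, above 91.8% of tested genes, and at 100 nM by 0.84, above 98.3%. Against the mean of the DMSO libraries the change at 200 nM 24 h was -0.02. Exchanging the DMSO 48 h and 100 nM 48 h labels gave -0.16 (100 nM) and -0.10 (200 nM) after 48 h, and without both libraries the remaining value of 11.76 was above the 24 h libraries.

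ARRDC1 (NCBI Gene ID 92714, chromosome 9 from 140500092 to 140509812), whose protein recruits TSG101 and drives budding of microvesicles from the plasma membrane, had the smallest range, with the highest value 1.37 times the lowest. It had 15.61, 14.77 and 18.87 (24 h), then 19.99, 20.18 and 18.66 (48 h) in the order of DMSO, 100 nM and 200 nM. The 200 nM 24 h library overlapped the 48 h libraries. Its changes against DMSO were -0.07 (100 nM) and 0.26 (200 nM) after 24 h, then 0.01 and -0.09 after 48 h, and the last of these was 0.07 against the mean of the DMSO libraries. For the changes at 100 nM and at 200 nM 48 h, the approximate 95% counting interval included 0.

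ARRDC3 (NCBI Gene ID 57561, chromosome 5 from 90664541 to 90679149) is known for directing integrin beta 4 (ITGB4) to degradation and as a candidate tumor suppressor in basal-like breast cancer. Its 24 h libraries had an FPKM of 8.58 (DMSO), 6.89 (100 nM) and 10.76 (200 nM), and its 48 h libraries 9.95, 13.59 and 9.63. The 100 nM dose thus gave the lowest of the 6 values at 24 h and the highest at 48 h. The changes were -0.28 and 0.41 at 100 nM and 0.30 and -0.04 at 200 nM, at 24 h and 48 h. At 100 nM, 10.3% of tested genes were lower at 24 h, and 1.9% were higher at 48 h. From 24 h to 48 h it was higher by 0.89 at 100 nM and the same difference was -0.15 at 200 nM and 0.19 in DMSO. Without the DMSO 48 h and 100 nM 48 h libraries, the 200 nM 48 h value lay within the range of the 24 h libraries.

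ARRDC4 (NCBI Gene ID 91947, chromosome 15 from 98503933 to 98517135) shares with TXNIP a transcriptional response to glucose and likewise lowers glucose uptake. It was the lowest of the 6 genes, with an FPKM of 1.32 (DMSO), 1.79 (100 nM) and 2.85 (200 nM) after 24 h, then 1.23, 1.41 and 2.05 after 48 h. The values stood in the order of dose after 24 h, and after 48 h with the labels as given. With DMSO 48 h and 100 nM 48 h exchanged, 200 nM was still highest, at 0.34 above DMSO, but the approximate 95% counting interval of -0.03 to 0.71 included 0. The 100 nM value was then below DMSO (-0.11). These levels rest on about 90 to 210 fragments per library. Against DMSO it had 0.27 (100 nM) and 0.73 (200 nM) after 24 h, then 0.11 and 0.45 after 48 h, and the approximate 95% counting intervals for 200 nM were 0.39 to 1.07 and 0.07 to 0.84. Those for 100 nM, -0.11 to 0.64 and -0.29 to 0.52, included 0. Of tested genes, 8.7% had a larger positive change at 200 nM 24 h and 3.1% at 200 nM 48 h. The pseudocount of 1 weighs on a gene of this level, and with a pseudocount of 0.1 the change at 200 nM 24 h was 1.05, past the 2-fold threshold. Unlike TXNIP, the DMSO libraries were close, with a change of -0.06.

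Counted over the 6 genes, 0 were called in the 4 comparisons with DMSO of the same time. In the background of all tested genes, 1.48% (100 nM) and 5.96% (200 nM) were called after 24 h, and 0.469% (100 nM) and 0.266% (200 nM) after 48 h. Between the DMSO libraries 1 of the 6, TXNIP, was called, beside 2.62% of 11490 tested genes. From 24 h to 48 h at 100 nM TXNIP alone of the 6 was called, beside 1.82%, and at 200 nM 0 were, beside 0.927%. Between the doses 0 were called at 24 h, beside 0.524%, and 0 at 48 h, beside 2%. Of any size, 5 of the 6 were below DMSO at 100 nM 24 h and 5 above it at 200 nM 24 h. Of all tested genes, 51.6% and 51.2% were above it there. At 48 h, 6 were above it at 100 nM and 3 at 200 nM, beside 47.2% and 51% of all tested genes. With the DMSO 48 h and 100 nM 48 h labels exchanged, 0 and 2 were. At 100 nM 24 h the approximate 95% counting interval included 0 for TXNIP, ARRDC1, ARRDC2 and ARRDC4. At 48 h it included 0 for ARRDC1, ARRDC2 and TXN at both doses, for ARRDC4 at 100 nM and for ARRDC3 at 200 nM. The other intervals did not include 0, and all cover counting error only. The median of the 6 was -0.08, 0.29, 0.14 and 0.01 in these 4 comparisons, and that of all tested genes lay between -0.01 and 0.01. Without a fold threshold, TXNIP and ARRDC2 were among 11.3% of 11893 genes that were higher in all 48 h libraries than in all 24 h libraries, and TXN was among 13.2% that were lower.

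**Figure D3:**
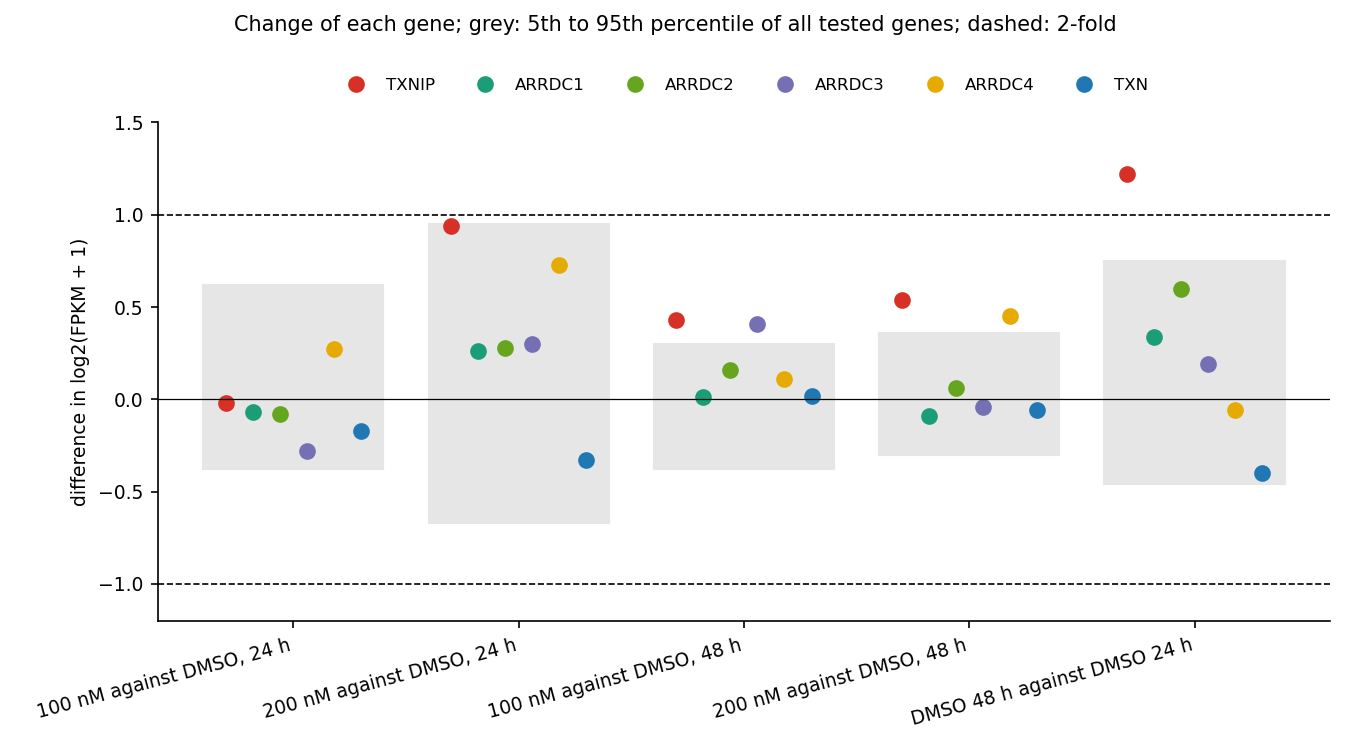
Change of each of the 6 genes in the comparisons with DMSO and between the DMSO libraries. The y axis is the difference in log2(FPKM + 1), grey boxes span the 5th to the 95th percentile of all tested genes, and dashed lines mark 2-fold. TXNIP lies above the box in both 48 h comparisons and, at 1.22, above the 2-fold line between the DMSO libraries.

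Across the 6 libraries, log2(FPKM + 1) of TXNIP had a Pearson r of 0.97 with ARRDC2, 0.90 with ARRDC1, 0.77 with ARRDC3, 0.09 with ARRDC4 and -0.92 with TXN. These describe 6 points that differ in dose and time together, 1 library each, and they carry no p-value. They include the doubted 48 h libraries and were not recalculated over the other 4. The 5 genes whose values were most like those of TXNIP, of 1662 genes with a comparable range, were EFNA1 (r = 0.992), LHPP (0.991), SLC2A3 (0.989), SYT12 (0.987) and CPE (0.978). SLC2A3, which encodes the glucose transporter GLUT3, had 13.40, 12.85 and 20.25 (24 h), then 29.08, 33.70 and 34.66 (48 h) in the order of DMSO, 100 nM and 200 nM. EFNA1, the ligand ephrin-A1, had 2.27, 2.16 and 3.77 (24 h), then 4.33, 4.90 and 4.92 (48 h). Both had, as TXNIP did, similar values in DMSO and 100 nM at 24 h and no overlap between the times. In all 5 genes the 200 nM 48 h value alone was also above the 24 h libraries. The 5 were picked for their likeness to TXNIP over these same libraries. Such shared features therefore follow from the choice and are no separate support. SYT12 was at or below 2.36. The genes most like ARRDC3, of 6336, were ZER1, PLEKHM1 and KCTD13, with r between 0.992 and 0.999. Those most like ARRDC4, of 7214, were PRPH, ZNF585A and RAB24, with r between 0.986 and 0.993. RAB24, a small GTPase of the autophagy pathway, had 14.18, 15.21 and 20.58 (24 h), then 12.93, 14.23 and 16.84 (48 h). This was the same order of doses as ARRDC4 at each time, which its selection by likeness to ARRDC4 favours.

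**Figure D4:**
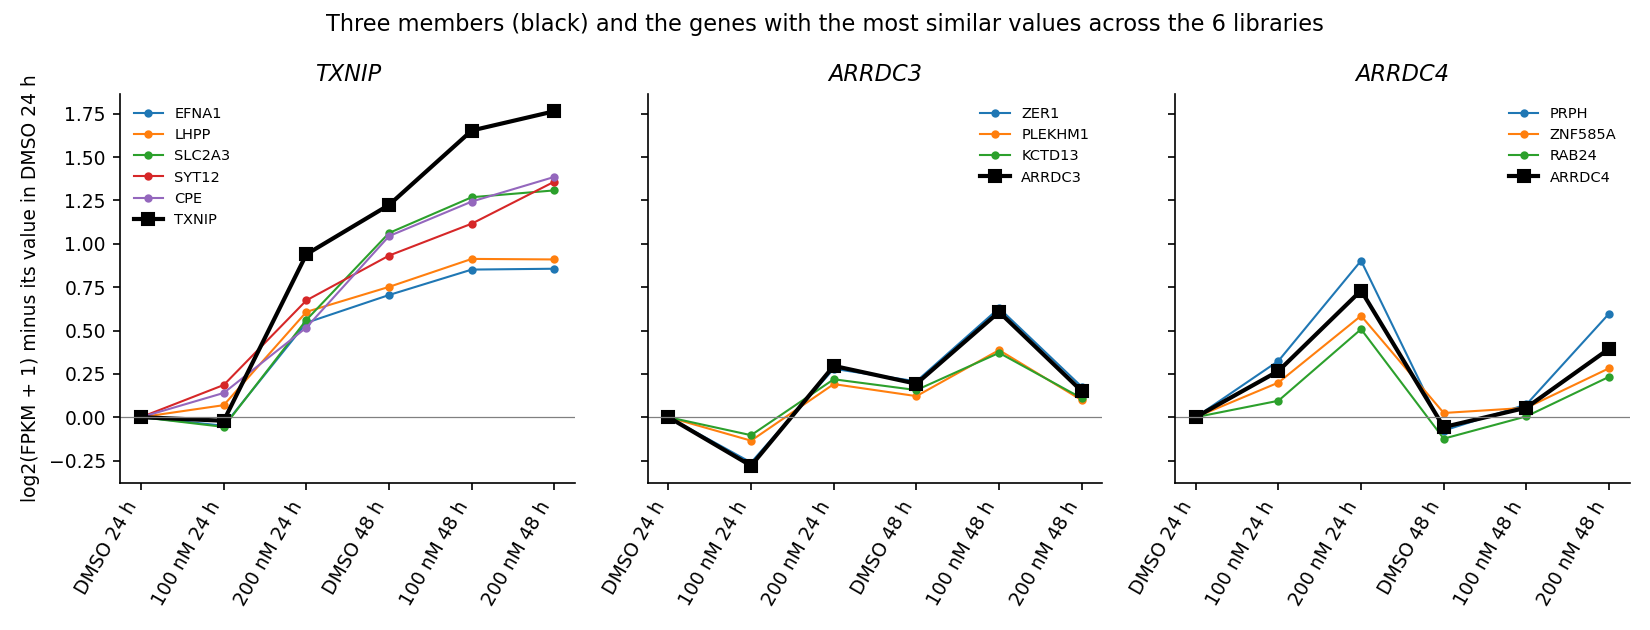
TXNIP, ARRDC3 and ARRDC4 (black squares) with the genes most like each. The y axis is log2(FPKM + 1) minus its value in DMSO 24 h, the x axis lists the 6 libraries, and the lines only join points of 1 gene. TXNIP is highest in 200 nM 48 h (234.04 FPKM), ARRDC3 in 100 nM 48 h (13.59) and ARRDC4 in 200 nM 24 h (2.85).

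The other genes around these 6 were read from lists of pathway members, and their values follow in the order of DMSO, 100 nM and 200 nM. Of 23 further genes of the thioredoxin and glutaredoxin systems, all tested, 0 were called at 100 nM 24 h or at 48 h. The share of all tested genes called in these comparisons with DMSO was 1.48%, 0.469% (100 nM 48 h) and 0.266% (200 nM 48 h). Against DMSO at 200 nM 24 h, 1 was called, beside 5.96% of all tested genes. It was SRXN1, which repairs over-oxidised peroxiredoxins and had 35.57, 46.12 and 91.92 (24 h), then 36.41, 27.75 and 54.85 (48 h). TXNRD1, the reductase that recycles TXN, had 218.25, 252.33 and 431.15 (24 h), then 198.75, 213.53 and 247.25 (48 h). Its changes of 0.98 at 200 nM 24 h and 0.31 at 200 nM 48 h stood beside -0.33 and -0.06 for TXN itself. GLRX, a glutaredoxin, was higher by 0.92 and MSRA, which repairs oxidised methionine, lower by 0.67 at 200 nM 24 h. The median of the list was 0.15 there and -0.01 in both 48 h comparisons. Above 0 at 200 nM 24 h were 15 of the 23 genes, beside 51.2% of all tested genes.

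Of 13 transcriptional regulators of TXNIP, 12 were tested at 200 nM 24 h and 2 were called, both higher, beside 5.96% of all tested genes. VDR, the vitamin D receptor, had 0.89 (DMSO), 2.21 (100 nM) and 4.48 (200 nM) after 24 h, then 1.44, 0.96 and 2.87 after 48 h. FOXO1, a forkhead factor, had 2.46, 4.25 and 6.84 (24 h), then 4.24, 4.63 and 6.10 (48 h). Of the glucose-sensing factors, MLXIP (MondoA) stayed between 10.54 and 12.75 and MLX between 41.94 and 54.64 in all libraries, and MLXIPL, which encodes ChREBP, was between 0.10 and 0.51, below the limit for a call. The list had 0 calls in the other 3 comparisons with DMSO, where at most 1.48% of all tested genes were called. Its median was 0.13 at 200 nM 24 h.

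Of 14 partners of TXNIP and glucose uptake genes, 0 were called in the comparisons with DMSO, although at 200 nM 24 h there was 1 with TPM, 2 with either smaller pseudocount and 3 at 1.5-fold. At 2-fold, 5.96% of all tested genes were called at 200 nM 24 h and at most 1.48% in the other comparisons with DMSO. SLC2A1, which encodes GLUT1, a transporter that TXNIP removes from the membrane, had 67.86, 72.95 and 127.37 (24 h), then 76.26, 85.99 and 81.12 (48 h). Its single high value was at 200 nM 24 h, with a change of 0.90. The ubiquitin ligase ITCH, which marks TXNIP for degradation, stayed between 12.23 and 14.67. NLRP3, the inflammasome protein that binds TXNIP, was lower by 0.69 at 200 nM 24 h, from 1.83 to 0.76. Between the DMSO libraries 2 of 13 tested genes were called higher at 48 h, where 2.62% of all tested genes were called in either direction. They were SLC2A3, by 1.06, and DDIT4, a stress-induced partner of TXNIP, by 1.29 (54.71 to 135.49), and DDIT4 was chosen after its values were seen. With PCI-24781, DDIT4 had 49.32 (100 nM) and 75.32 (200 nM) after 24 h, then 170.21 and 122.16 after 48 h. Without the DMSO 48 h library, the 200 nM 48 h values of SLC2A3 (34.66) and DDIT4 were still above all 24 h libraries.

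Among 17 partners of the ARRDC proteins, 0 were called against DMSO of the same time, although at 200 nM 24 h there was 1 with TPM, 1 with the mean DMSO reference and 2 at 1.5-fold. The 2-fold rule called 5.96% of all tested genes at 200 nM 24 h and at most 1.48% in the other comparisons with DMSO. NEDD4L, a ligase of the NEDD4 family, had 51.51, 67.82 and 103.01 (24 h), then 50.23, 44.78 and 55.96 (48 h), and its change of 0.99 at 200 nM 24 h lay just below the threshold. NEDD4 itself stayed between 16.61 and 21.76 and TSG101 between 46.85 and 54.60. Of the cargo of ARRDC3, ITGB4 had 10.00, 13.06 and 14.86 (24 h), then 22.34, 34.40 and 19.74 (48 h). Its highest value was, as for ARRDC3, at 100 nM 48 h. ITGB4 rose by 1.09 between the DMSO libraries, the only one of the 17 called there, beside 2.62% of all tested genes. Its 200 nM 48 h value was also above all 24 h libraries. Of 6 other genes with an arrestin fold, 5 were tested and 1 was called at 200 nM 24 h, beside 5.96% of all tested genes. It was ARRB2 (beta-arrestin 2), with 21.96, 39.70 and 55.59 (24 h), then 31.65, 25.44 and 45.11 (48 h). ARRB1 (beta-arrestin 1) had its highest value, 8.21, at 100 nM 48 h. The sixth, ARRDC5, was at or below 0.15 and was listed at 0 in DMSO 24 h and 100 nM 24 h.

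**Figure D5:**
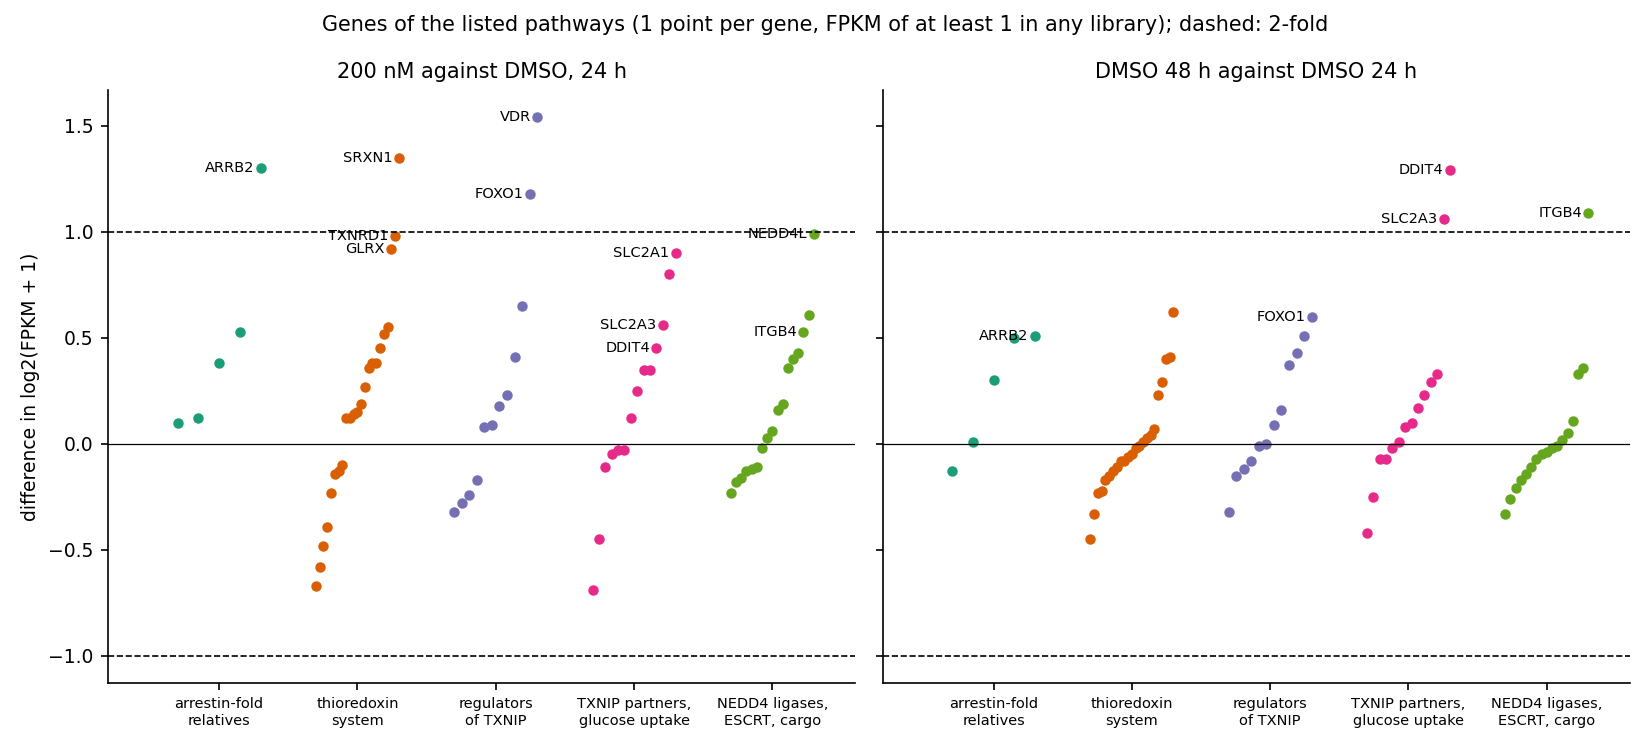
Genes of the listed pathways at 200 nM against DMSO at 24 h (left) and in DMSO 48 h against DMSO 24 h (right). The y axis is the difference in log2(FPKM + 1), each point is 1 gene that reached an FPKM of 1 somewhere, and dashed lines mark 2-fold. SRXN1, VDR, FOXO1 and ARRB2 pass the upper line on the left, and DDIT4, SLC2A3 and ITGB4 on the right.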

How the data were processed

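Total RNA of MDA-MB-231 cells was sequenced in 1 library for each of 6 conditions. The authors deposited FPKM values per gene, rounded to 2 decimals. The submitters' processing notes name Bowtie2, RSEM and the build hg19, without versions, and further filters are not given in the sources used here. FPKM corrects for transcript length and library total, so a gene's value also depends on what the other genes take of the library, and reads shared between similar genes are divided by RSEM's estimate. For 16585 of 16623 genes the NCBI Gene ID was found in RefSeq's table (GRCh38.p14), which gave the symbol.

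Changes were calculated across all genes as differences in log2(FPKM + 1), which understates those of low genes. Without counts or replicates, neither a count test nor any p-value was computed. The 4 comparisons with DMSO of the same time share a DMSO library per time. The 6 genes and the gene lists were chosen with earlier results of these data known. Genes named beside the 6 were the 5 most like TXNIP, the 3 most like each of ARRDC3 and ARRDC4, up to 4 with the largest change in each list, and TXNRD1, MLXIP, SLC2A1, ITCH, NEDD4, TSG101 and ITGB4, and not all are given. Some items are not reported here. DDIT4, MLX, MLXIPL, ARRDC5 and KCTD5 were added after their values were seen. Similarity was Pearson r of log2(FPKM + 1) over the 6 libraries, among genes whose range was within a factor of 2 of the member's.

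The depth was inferred from the low values of single-transcript genes between 500 and 1500 bases long (GENCODE release 29), of which between 71.3% and 80.1% lay within 0.2 of a whole fragment. It is approximate, and the 95% intervals made from it cover counting error only and leave out differences between cultures. The calling rule was run on simulated data with counting error only and planted changes well past the threshold. That setting cannot show how the rule handles differences between cultures or changes near 2-fold. Promoter windows came from RefSeq (GRCh38.p14), and all 6 genes matched. As alternatives, the pseudocount was set to 0.1 or 0.01, the filter was dropped or applied to both libraries, values were rescaled to TPM or by median-of-ratios factors, the threshold was lowered to 1.5-fold, and the mean of the DMSO libraries served as reference. Calculations used Python 3.11.15 with pandas 2.3.3 and numpy 2.4.6, and figures matplotlib 3.10.9.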

Additional observations from a re-analysis of the deposited data

Results flagged for a closer look

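At 100 nM, 7 genes lay on opposite sides of DMSO at 24 h and 48 h by at least 0.2 on the log2 scale. They were counted among the members and the genes named from the lists by the rule above. The limit was chosen after the values were seen, and the difference between the times was not tested. ARRDC3 had -0.28 at 24 h and 0.41 at 48 h. The other 6 went the opposite way, with ARRB2 at 0.83 and -0.30, SRXN1 at 0.37 and -0.38, VDR at 0.76 and -0.32, WWP1 at 0.30 and -0.29, CDKN1A at 1.16 and -0.76 and CLU at 1.23 and -0.54. At 200 nM none of the named genes did so. The 48 h values use the DMSO 48 h and 100 nM 48 h libraries, whose values did not follow their labels in the way of the 24 h libraries, and the part of those libraries in this pattern was not tested.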

How the results depend on the processing

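No paired analysis was possible because the labels give no replicate numbers. A fit of dose plus time over the 6 libraries, which treats any difference between the times in response as error, was not run. Among the recalculated changes of the 6 genes, 162 kept their sign and their side of the threshold, 7 passed it and 5 changed sign. TXNIP passed the threshold with 0.94 at 200 nM 24 h when it was 1.5-fold, and with 1.04 and 1.15 at 100 nM and 200 nM 48 h against the mean of the DMSO libraries. ARRDC4 at 200 nM 24 h passed with 1.05 and 1.10 at pseudocounts of 0.1 and 0.01 and with 0.73 at 1.5-fold, and ARRDC2 between the DMSO libraries with 0.60 at 1.5-fold. Against the mean of the DMSO libraries the sign changed for ARRDC1 at 200 nM 48 h (0.07), ARRDC2 at 200 nM 24 h (-0.02), ARRDC3 at 200 nM 48 h (0.05) and TXN at 100 nM (0.03 at 24 h and -0.18 at 48 h). Of the 5 genes most like TXNIP, 4 were again among the first 5 with a pseudocount of 0.1.

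The number of called genes over the whole table moved most with the settings. After 24 h with 100 nM it was 170, and it became 784 (1.5-fold), 426 (pseudocount 0.1), 472 (pseudocount 0.01), 309 (TPM), 109 (FPKM of 1 required in both) and 32 (mean DMSO reference). With 200 nM it was 695, and became 2351, 1163 and 1236 under the first 3 of these settings and 321 with the mean DMSO reference. After 48 h with 100 nM it was 54, against 261, 153, 174, 88, 31 and 22 under the 6 settings, and with 200 nM it was 31, against 232, 128, 153, 71, 20 and 177. Between the DMSO libraries it was 301, against 1202, 607, 637 and 468 under the first 4. The mean DMSO reference turned 7 higher and 47 lower calls into 18 and 4 (100 nM, 48 h), 24 and 7 into 167 and 10 (200 nM, 48 h), and 155 and 15 into 22 and 10 (100 nM, 24 h). The 1.5-fold threshold turned 523 and 172 into 1463 and 888 (200 nM, 24 h), and 286 and 15 into 978 and 224 between the DMSO libraries. A smaller pseudocount widens by construction the changes of low genes. The mean DMSO reference mixes the times. By construction it adds part of the DMSO 48 h against 24 h difference to each 48 h change and takes the same part from each 24 h change. The median-of-ratios factors and the lack of a filter moved none of these counts by over 1.5 times. With the labels of DMSO 48 h and 100 nM 48 h exchanged, an alternative chosen after seeing the data, the sign at 100 nM 48 h changed for TXNIP (-0.43), ARRDC1 (-0.01), ARRDC2 (-0.16), ARRDC3 (-0.41), ARRDC4 (-0.11) and TXN (-0.02), for ARRDC2 at 200 nM 48 h (-0.10) and for ARRDC4 between the DMSO libraries (0.05). The 54 calls at 100 nM 48 h were then 47 higher and 7 lower, those at 200 nM 48 h numbered 234, and TXNIP between the DMSO libraries had 1.65. Of the calls counted within the lists, 209 counts were stable and 25 moved. For the thioredoxin list at 200 nM 24 h the 1 call became 4 (1.5-fold) or 2 (mean DMSO reference), and for the regulators the 2 calls became 1 with the mean DMSO reference or an FPKM of 1 required in both. Of the list medians, 229 stayed within 0.1 and 5 did not. The counting error of ARRDC4, with about 90 to 210 fragments per library, limits what its 100 nM values can show.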

Other observations

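Only 1 other promoter window of the table held the pair of E-box variants found at TXNIP, that of KCTD5, an adaptor of a ubiquitin ligase complex, and it was looked up after the motif search. KCTD5 had an FPKM of 30.02, 28.50 and 30.57 in DMSO, 100 nM and 200 nM at 24 h and 28.84, 30.06 and 31.76 at 48 h. Its changes against DMSO of the same time were -0.07 (100 nM) and 0.03 (200 nM) after 24 h, beside -0.02 and 0.94 for TXNIP. After 48 h they were 0.06 and 0.13, beside 0.43 and 0.54.

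Of 5 HDAC inhibitor response genes, CDKN1A and CLU were called at both doses at 24 h, beside 1.48% (100 nM) and 5.96% (200 nM) of all tested genes. Both were also called between the DMSO libraries, beside 2.62%. At 48 h against DMSO 0 of the 5 were called, beside 0.469% (100 nM) and 0.266% (200 nM). With the mean of the DMSO libraries as reference this pattern turned, with 0 called at either dose after 24 h and 2 at 200 nM after 48 h. For genes that rose between the DMSO libraries, as CDKN1A and CLU did, that reference by construction lowers the 24 h changes and raises the 48 h changes.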
